A study of Homo sapiens with 2 samples.

Results

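The reactive astrocyte and acute-phase genes described here are SERPINA3, SERPING1, C3, CHI3L1, LCN2, TIMP1, VCAM1, ICAM1, CD44 and SPP1. They are 10 of the 36601 genes in the deposited tables and were found by symbol, and each symbol matched 1 gene. Their levels were read in astrocyte progenitors made from H7, an established human embryonic stem cell line, in 1 single-cell RNA library from day 220 and 1 from day 160 of culture. The agent label of both libraries reads LIF, BMP4 and FGF1, so both groups had these factors and an untreated culture was not analysed here. Each library mixed the cells of 3 differentiations, which no label separates, so that neither day had a replicate and no test or p-value could be computed. The day 220 library has day 160 in its protocol text but day 220 in its title and its time-point label, and a prefix in the deposited names, unexplained by the labels, differs between the libraries. Day and any other difference between the 2 libraries cannot be told apart.

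Astrocytes respond to injury, infection and cytokines by entering reactive states in which intermediate filaments, protease inhibitors, complement components and adhesion molecules are made in larger amounts. In the liver, much the same cytokines drive the acute-phase response, the release of plasma proteins such as alpha-1-antichymotrypsin. Cytokines of the LIF and interleukin family that use the gp130 receptor act on these genes through the transcription factor STAT3, whereas TNF acts through NF-kB. SERPINA3, SERPING1 and TIMP1 encode inhibitors of proteases, C3 the central protein of complement, and LCN2, CHI3L1 and SPP1 secreted proteins. VCAM1 and ICAM1 are adhesion receptors that bind integrins of leukocytes, and CD44 is the surface receptor of hyaluronan.

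The limits for a barcode, at least 1000 genes detected and no more than 15% mitochondrial UMIs, were met by 524 of 676 barcodes at day 220 and 9972 of 13018 at day 160. A UMI marks 1 captured RNA molecule. Scrublet, a doublet caller, marked 6 of these barcodes at day 220 and 583 at day 160, and the rest were kept as 518 cells at day 220 and 9389 cells at day 160. The day 220 library held fewer but deeper cells, with a median of 46079.5 UMIs against 10041 UMIs at day 160, and 25487554 UMIs in all against 115158004. Only 3 deposited barcodes, 2 of them kept, occurred in both libraries. Mitochondrially encoded genes took 8.78% of UMIs at day 220 and 11.7% at day 160. Together the 10 genes took 0.049% of UMIs at day 220 and 0.0612% at day 160. Microglia, endothelial cells and hepatocytes are other known makers of these genes. Of 10 microglial markers none reached 10 CPM (counts per 10⁶ UMIs) in either library, and 6 of them had 0 UMIs in each library. The summed markers stood at 1.37 CPM at day 220 and 0.0434 CPM at day 160 for microglia, at 1.02 and 0.634 CPM for 6 endothelial markers, and at 0.549 and 0.469 CPM for 4 hepatocyte markers. The 13 astrocyte markers summed to 3297 CPM at day 220, where 10 of them reached 10 CPM, and to 3967 CPM at day 160, where 9 did.

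The promoters of 3 of the genes are printed here because SERPINA3 and VCAM1 had the largest differences of the set in one direction and ICAM1 the largest in the other, on the log2 scale used below. RefSeq promoters on GRCh38.p14 were found for 8 of the 10 genes, SERPING1 and C3 being the others. Each sequence runs 5′ to 3′ on the gene's strand, the plus strand in all 3, from 250 bases before the RefSeq start to 50 bases after it. The VCAM1 window lies at chr1:100719492-100719791, the ICAM1 window at chr19:10270870-10271169 and the SERPINA3 window at chr14:94612141-94612440. Capitals mark matches to 3 motifs searched on both strands, the STAT-type palindrome TTCNNNGAA, the NF-kB consensus and the TATA motif TATAAA. The NF-kB consensus was searched as GGGRNNYYCC, where R is A or G, Y is C or T and N is any base.
VCAM1: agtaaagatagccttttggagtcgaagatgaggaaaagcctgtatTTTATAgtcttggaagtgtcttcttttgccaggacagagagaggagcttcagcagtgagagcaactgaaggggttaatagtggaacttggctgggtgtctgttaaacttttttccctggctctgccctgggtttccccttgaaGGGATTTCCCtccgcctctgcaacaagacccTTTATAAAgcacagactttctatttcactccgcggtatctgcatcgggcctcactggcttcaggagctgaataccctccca
ICAM1: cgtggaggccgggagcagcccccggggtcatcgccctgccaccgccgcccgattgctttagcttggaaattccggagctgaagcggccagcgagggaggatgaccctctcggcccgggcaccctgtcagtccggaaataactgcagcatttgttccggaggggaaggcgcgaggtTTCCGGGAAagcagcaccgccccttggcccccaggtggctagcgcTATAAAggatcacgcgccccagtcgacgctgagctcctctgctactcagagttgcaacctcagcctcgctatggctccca
SERPINA3: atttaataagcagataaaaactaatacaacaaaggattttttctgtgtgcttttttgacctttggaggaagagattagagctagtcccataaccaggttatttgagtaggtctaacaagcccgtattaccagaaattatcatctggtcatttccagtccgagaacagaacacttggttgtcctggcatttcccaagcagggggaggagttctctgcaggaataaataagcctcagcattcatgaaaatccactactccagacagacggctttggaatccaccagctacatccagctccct
The VCAM1 window held the NF-kB match GGGATTTCCC at -62 to -53 from the start and TATAAA at -29 to -24, which overlaps a TTTATA on the other strand at -31 to -26, and a further TTTATA lay at -205 to -200. In the ICAM1 window TTCCGGGAA stood at -75 to -67 and TATAAA at -30 to -25. None of the 3 motifs was in the SERPINA3 window, nor in those of TIMP1, CD44 and SPP1, while CHI3L1 held TATAAA and LCN2 an NF-kB match. Such matches are common: of 35116 promoters of the same length, 7.66% held TTCNNNGAA, 11.3% the NF-kB consensus and 11.5% TATAAA. A match describes letters only. Sites that depart from the 3 patterns by any letter were not marked, so a window without a match may still hold a variant site.

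SERPINA3 and VCAM1 were much lower at day 220 than at day 160, SERPING1 was lower at a low level, ICAM1 was higher at a low level, and TIMP1, CD44 and SPP1 stayed within 2-fold. C3, CHI3L1 and LCN2 were near 0 in both libraries. UMIs of all kept cells were summed for each library, and differences are given as log2 of day 220 CPM + 1 over day 160 CPM + 1, a scale that understates differences of low genes. On it 3 of the 10 genes were at least 2-fold lower at day 220 and 1 was at least 2-fold higher. Over the 10167 genes with 10 CPM or more in either library, 5.09% were at least 2-fold lower and 23% at least 2-fold higher. The median log2 ratio of the 10 genes was -0.01, against 0.14 for those 10167 genes. Only 5 of the 10, SERPINA3, TIMP1, VCAM1, CD44 and SPP1, reached 10 CPM in either library, and of these 2 were 2-fold lower and 0 were 2-fold higher.

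**Figure D1:**
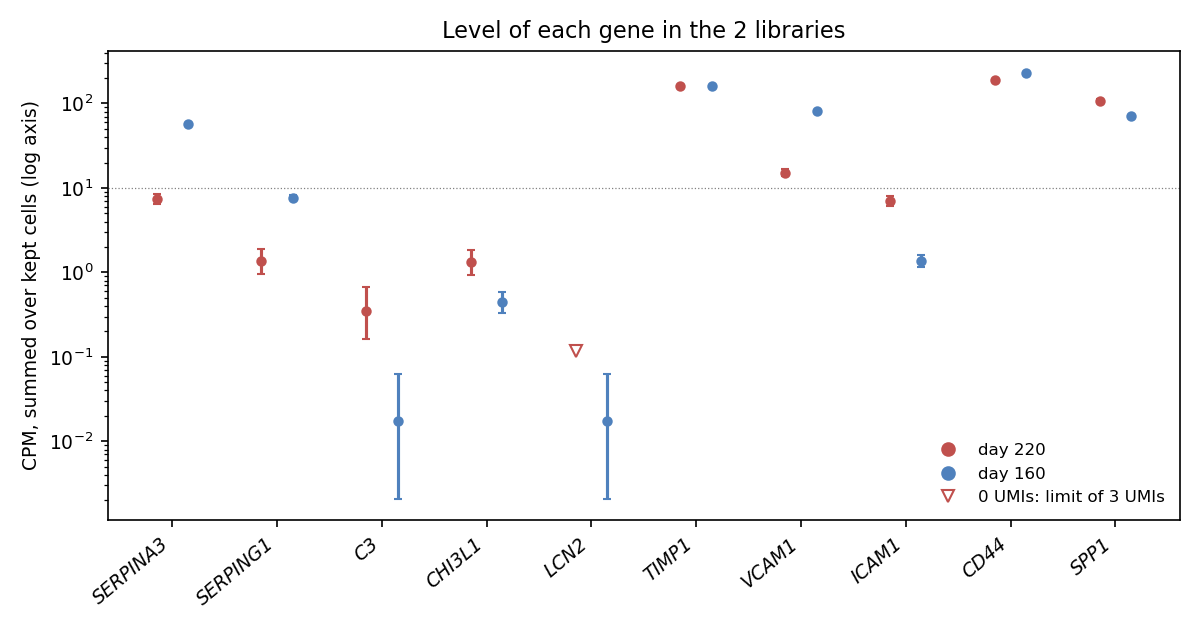
Level of each of the 10 genes in CPM summed over kept cells (vertical log axis), day 220 to the left of day 160 for each gene, with exact Poisson 95% intervals that cover counting error only and a dotted line at 10 CPM. The points of TIMP1 lie at 159 CPM in both libraries, SERPINA3 and VCAM1 lie lower at day 220, ICAM1 lies higher, and the open triangle stands for LCN2, which had 0 UMIs at day 220.

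Among the protease inhibitors, SERPINA3 (ENSG00000196136, chromosome 14, 94612377 to 94624055 on GRCh38), which encodes alpha-1-antichymotrypsin, an inhibitor of cathepsin G and chymase, had 7.42 CPM (95% interval 6.40 to 8.55) from 189 UMIs at day 220, against 57.7 CPM (56.4 to 59.1) from 6649 UMIs at day 160. The day 220 level was 7.79-fold lower (6.74 to 9.05). Its log2 ratio of -2.80 was the lowest of the 10 genes. SERPING1 (chromosome 11, 57597387 to 57614853), the inhibitor of the complement proteases C1r and C1s, had 1.37 CPM (0.956 to 1.91) at day 220, against 7.66 CPM (7.16 to 8.18) at day 160, 5.58-fold lower (3.98 to 8.06). These rest on 35 and 882 UMIs, so SERPING1 was a rare transcript on both days. TIMP1 (chromosome X, 47582313 to 47586789), an inhibitor of matrix metalloproteinases, had 159 CPM in each library, from 4056 UMIs at day 220 and 18332 UMIs at day 160. Its ratio of 1.0 had an interval of 0.966 to 1.03, so that at this depth the libraries differed by less than counting error. TIMP1 lies within SYN1 on the opposite strand, and SYN1 itself had 2.67 CPM at day 220 and 1.41 CPM at day 160. Whether counting used strand is not stated, and SYN1 reads that fell on TIMP1 could not be told apart from its own.

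The other secreted genes gave few molecules, with SPP1 as the exception. C3 (chromosome 19, 6677704 to 6730562), whose cleavage drives every complement pathway, had 9 UMIs or 0.353 CPM at day 220 and 2 UMIs or 0.0174 CPM at day 160. The ratio of 20.3 had a counting interval of 4.21 to 193, and both levels lay far under 1 CPM. C3 shares 649 bases with GPR108 on the same strand, and GPR108 had 20.8 CPM at day 220 and 26.5 CPM at day 160. How reads of that overlap were counted is not stated. LCN2, which encodes lipocalin-2, a protein that binds bacterial iron carriers and marks reactive astrocytes in mouse, had 0 UMIs at day 220, where 3 UMIs would be 0.118 CPM, and 2 UMIs at day 160. No fold is given for it. CHI3L1, a chitin-binding glycoprotein also called YKL-40, had 1.33 CPM (0.924 to 1.86) at day 220, against 0.443 CPM (0.330 to 0.582) at day 160, 3.01-fold higher (1.89 to 4.74). Its UMIs came from few cells, 34 UMIs in 12 cells at day 220 and 51 UMIs in 19 cells at day 160. A single astrocyte-like cell carried 31 of the day 160 UMIs, and the richest cell of day 220, a contractile-like one, carried 12. Without the richest cell of each library CHI3L1 stood at 0.863 CPM at day 220 and 0.174 CPM at day 160. SPP1 (chromosome 4, 87975650 to 87983426), which encodes osteopontin, a ligand of CD44 and of integrins, had 108 CPM (104 to 112) at day 220, against 70.7 CPM (69.2 to 72.3) at day 160, 1.53-fold higher (1.47 to 1.60).

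The 3 surface genes went separate ways. VCAM1 (chromosome 1, 100719742 to 100739045), the ligand of the integrin of alpha-4 and beta-1 chains, had 15.1 CPM (13.7 to 16.7) at day 220, against 82.4 CPM (80.8 to 84.1) at day 160, 5.44-fold lower (4.92 to 6.04). ICAM1 (chromosome 19, 10270835 to 10286615), the ligand of the leukocyte integrin LFA-1, was the one gene of the set that passed 2-fold in the other direction. It had 7.02 CPM (6.03 to 8.13) from 179 UMIs at day 220, against 1.37 CPM (1.17 to 1.60) from 158 UMIs at day 160, 5.12-fold higher (4.11 to 6.38). The antisense gene AC011511.2 overlaps ICAM1 and had 0.667 CPM at day 220 and 0.00868 CPM at day 160, and how reads of the overlap were counted is not stated. CD44 (chromosome 11, 35138870 to 35232402) had 189.9 CPM (185 to 195) at day 220, against 233 CPM (230 to 235) at day 160, a ratio of 0.817 (0.792 to 0.842). The CD44 difference was larger than counting error and smaller than 2-fold.

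The ratios were also centred on genes of like annotated intron length, which left 7.58% of 10139 genes at least 2-fold lower and 10.1% at least 2-fold higher, beside 5.09% and 23% without centring. Centred so, SERPINA3 had a log2 ratio of -2.42, VCAM1 -2.11, SERPING1 -1.65 and ICAM1 1.95, so all 4 remained past 2-fold in the same direction. CHI3L1 also passed 2-fold, at 1.02. CD44, whose 83529 intron bases are the most of the 10 genes, moved to -0.82, TIMP1 to 0.38 and SPP1 to 0.93. No direction is given here for TIMP1, whose ratio changes sign with the scaling.

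**Figure D2:**
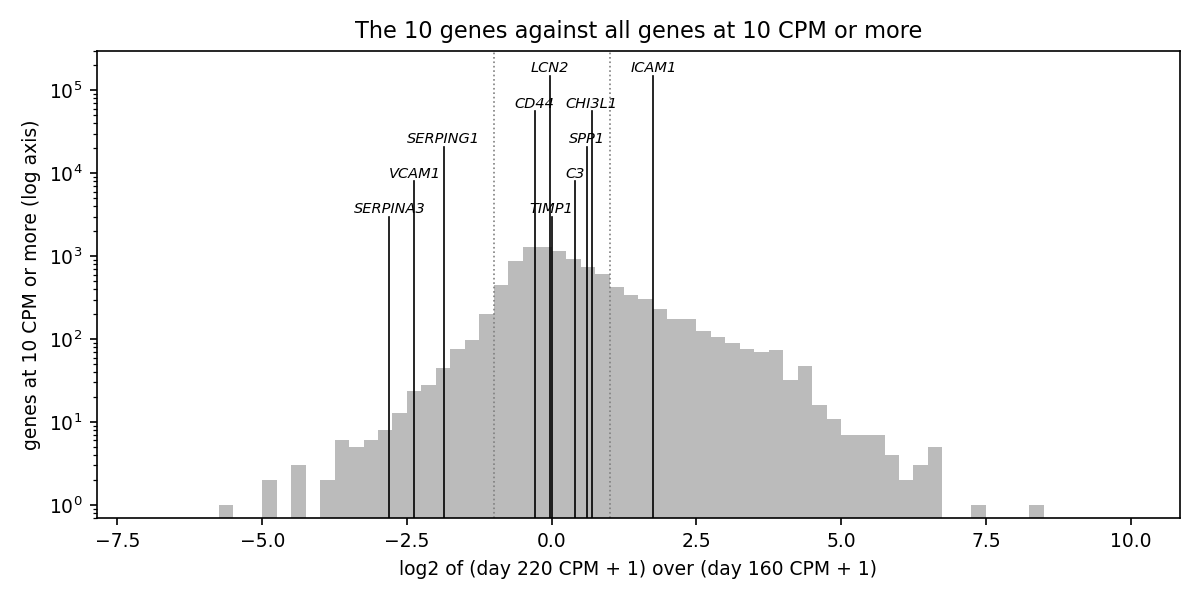
Histogram of the log2 ratio of day 220 over day 160 for the 10167 genes with 10 CPM or more in either library (bars, vertical log axis), with a vertical line for each of the 10 genes. Line heights only separate the labels, and dotted lines mark 2-fold. SERPINA3, VCAM1 and SERPING1 lie left of the lower dotted line, ICAM1 right of the upper one, and the other 6 between them.

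Each library was clustered alone, with the 10 genes and the gene lists used below left out of the genes that define clusters. Clusters were called astrocyte-like, contractile-like, neuronal precursor-like or cycling-like by their marker genes, and each is named here by 1 leading gene. The astrocyte-like cells were the SPARCL1 cluster at day 220 (126 cells, 24.3%) and the HLA-DRA cluster at day 160 (2782 cells, 29.6%), and each had 6 of 13 astrocyte markers at 2-fold or more over the rest of its library. Radial glia markers were raised there too, 3 of 8 at day 220 and 4 of 8 at day 160, and of the 10 leading genes 2 were astrocyte markers at day 220 and 0 at day 160. Genes of the major histocompatibility complex class II, which present antigens, were among the leading genes of both clusters. The contractile-like cells, led by COL1A1 and smooth-muscle genes, were the COL1A1 cluster at day 220 (44 cells) and the ACTG2 cluster at day 160 (238 cells). These cells were the deepest, with medians of 87469.5 UMIs at day 220 and 32512.5 UMIs at day 160.

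SERPINA3 was highest in the astrocyte-like cells on both days. The astrocyte-like cluster held 86.2% of all SERPINA3 UMIs at day 220 and 88.3% at day 160. At day 220 it had 20.5 CPM (17.5 to 23.9) there, against 2.61 CPM or less in the other 3 clusters of 50 cells or more, whose intervals overlapped from one to the next. At day 160 it had 137 CPM (133 to 140) in the astrocyte-like cluster, 44.3 CPM (40.3 to 48.5) in the contractile-like cluster and 9.94 CPM or less in the other 8 clusters of 50 cells or more. Within the astrocyte-like cells SERPINA3 was 6.66-fold lower at day 220 (5.70 to 7.82). In the contractile-like cells it had 0 UMIs in 44 cells at day 220 and 457 UMIs at day 160. Counted against 3 UMIs over that class, or 0.752 CPM, this was at least 58.9-fold lower. In cycling-like cells SERPINA3 had 4.62 CPM (2.0 to 9.11) at day 220, against 5.69 CPM (4.78 to 6.73) at day 160. All 8 day 220 UMIs came from a single cell (3.23% of 31 cells), which the interval does not reflect. Thinned to 5000 UMIs, 0 of 28 cycling-like cells had a SERPINA3 UMI at day 220 and 1.98% of 1764 did at day 160. No direction is read for this class. A few cells carried much of the transcript: the richest 1% of cells held 48.7% of SERPINA3 UMIs at day 220 (6 cells, all astrocyte-like) and 32.7% at day 160 (94 cells, 88 of them astrocyte-like and 6 contractile-like).

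VCAM1 was also highest in the astrocyte-like cells and spread further into other clusters. It had 30.3 CPM (26.6 to 34.4) in those cells at day 220, against 147 CPM (143 to 150) at day 160, 4.83-fold lower (4.25 to 5.52). Among the day 160 clusters of 50 cells or more, the GADD45G cluster, which was not named, followed with 89.3 CPM, then the cycling CDC20 cluster with 80.8 CPM, and these neighbours overlapped within counting error. The CRABP1 cluster of neuronal precursor-like cells was lowest, at 3.96 CPM. Cycling-like cells had 12.7 CPM (7.97 to 19.2) at day 220, against 62.7 CPM (59.6 to 66.0) at day 160, and contractile-like cells 4.77 CPM at day 220 and 52.7 CPM at day 160, which was 11.1-fold lower (7.01 to 18.5). VCAM1 was thus lower at day 220 in each of the 4 classes, by the least in neuronal precursor-like cells, at 6.33 CPM against 10.5 CPM.

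SPP1 and CD44 shared the astrocyte-like and contractile-like cells as their high clusters. SPP1 had 250.1 CPM (239 to 261) in astrocyte-like cells at day 220, against 140.3 CPM (137 to 144) at day 160, 1.78-fold higher (1.69 to 1.88). In contractile-like cells it had 148 CPM (136 to 160) at day 220, against 93.5 CPM (87.7 to 99.6) at day 160. The astrocyte-like cluster held 71.9% of SPP1 UMIs at day 220 and 74.0% at day 160. CD44 had 308 CPM (296 to 321) in astrocyte-like cells at day 220, against 334 CPM (329 to 340) at day 160, a log2 ratio of -0.12 that centring on intron length moved to -0.74. In contractile-like cells, where it was highest at day 160, CD44 had 330.3 CPM (313 to 349) at day 220, against 487 CPM (473 to 500.5) at day 160. Of the 94 day 160 cells richest in CD44, 61 were contractile-like and 31 astrocyte-like, and their median depth was 80238 UMIs. The neuronal precursor-like cells were low in both genes, with CD44 at 45.9 CPM at day 220 and 91.0 CPM at day 160 and SPP1 at 13.3 CPM at day 220 and 6.46 CPM at day 160.

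Of the 5 more abundant genes TIMP1 varied least among the day 160 clusters. Its levels in the 10 clusters of 50 cells or more lay between 95.4 CPM in the MYBL2 cluster and 207 CPM in the astrocyte-like cluster, 2.17 times the lowest. At day 220 the 4 clusters of that size lay between 128 CPM and 166 CPM, and each overlapped with its neighbour in order. Smaller day 220 clusters lay outside that range, with 51.5 CPM (37.1 to 69.6) in the SCGN cluster of 39 cells and 233 CPM in the COL1A1 cluster. In astrocyte-like cells TIMP1 had 161 CPM (152 to 169.8) at day 220, against 207 CPM (203 to 211) at day 160, 1.29-fold lower (1.21 to 1.37). In contractile-like cells it had 233 CPM (218 to 248) at day 220, against 176 CPM (168 to 184) at day 160, 1.32-fold higher (1.22 to 1.43). Both differences exceeded counting error, but centred on intron length the log2 ratios were 0.06 in astrocyte-like and 0.64 in contractile-like cells, so their opposite signs did not hold under that scaling.

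SERPING1 was highest outside the astrocyte-like cells on both days. Among the clusters of 50 cells or more, it was highest at day 220 in the unnamed CHRNA1 cluster, at 4.06 CPM (2.22 to 6.81), and lowest in the astrocyte-like cluster, at 0.756 CPM (0.277 to 1.64). At day 160 it was highest in the CRABP1 cluster, at 17.3 CPM (14.9 to 20.0), which overlapped with the SST cluster at 12.6 CPM, and lowest in the contractile-like cluster, at 0.969 CPM. The astrocyte-like cluster of day 160 had 3.98 CPM (3.41 to 4.62). Neuronal precursor-like cells had 1.84 CPM (0.840 to 3.49) at day 220, against 14.6 CPM (13.0 to 16.2) at day 160, 7.92-fold lower (4.12 to 17.5). At day 220 that class was the NRXN3 and SCGN clusters and at day 160 the CALB2 and CRABP1 clusters. In cycling-like cells SERPING1 had 0 UMIs at day 220 against 212 UMIs at day 160. Against 3 UMIs over the class this was 5.08-fold lower, and the exact interval of the ratio began at 4.10-fold lower.

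ICAM1 was higher at day 220 in all 4 classes, and in contractile-like cells the interval of its ratio reached below 1. It had 9.57 CPM (7.54 to 12) in astrocyte-like cells at day 220, against 1.63 CPM (1.27 to 2.06) at day 160, 5.87-fold higher (4.19 to 8.25). Neuronal precursor-like cells had 7.35 CPM (5.15 to 10.2) at day 220, against 2.44 CPM (1.83 to 3.18) at day 160. The 4 clusters of 50 cells or more at day 220 lay between 6.90 and 9.57 CPM and did not differ beyond counting error from one to the next. At day 160 ICAM1 was highest among clusters of that size in the CALB2 cluster, at 3.56 CPM (2.55 to 4.82), and 0 UMIs were found in the MYBL2 cluster. CHI3L1 had 88.2% of its day 220 UMIs in the contractile-like cluster, at 7.52 CPM (5.08 to 10.7). At day 160 it had 0.872 CPM (0.399 to 1.66) there and 0.955 CPM (0.685 to 1.29) in the astrocyte-like cluster, which overlap, and 31 of the 41 astrocyte-like UMIs were in the single rich cell.

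**Figure D3:**
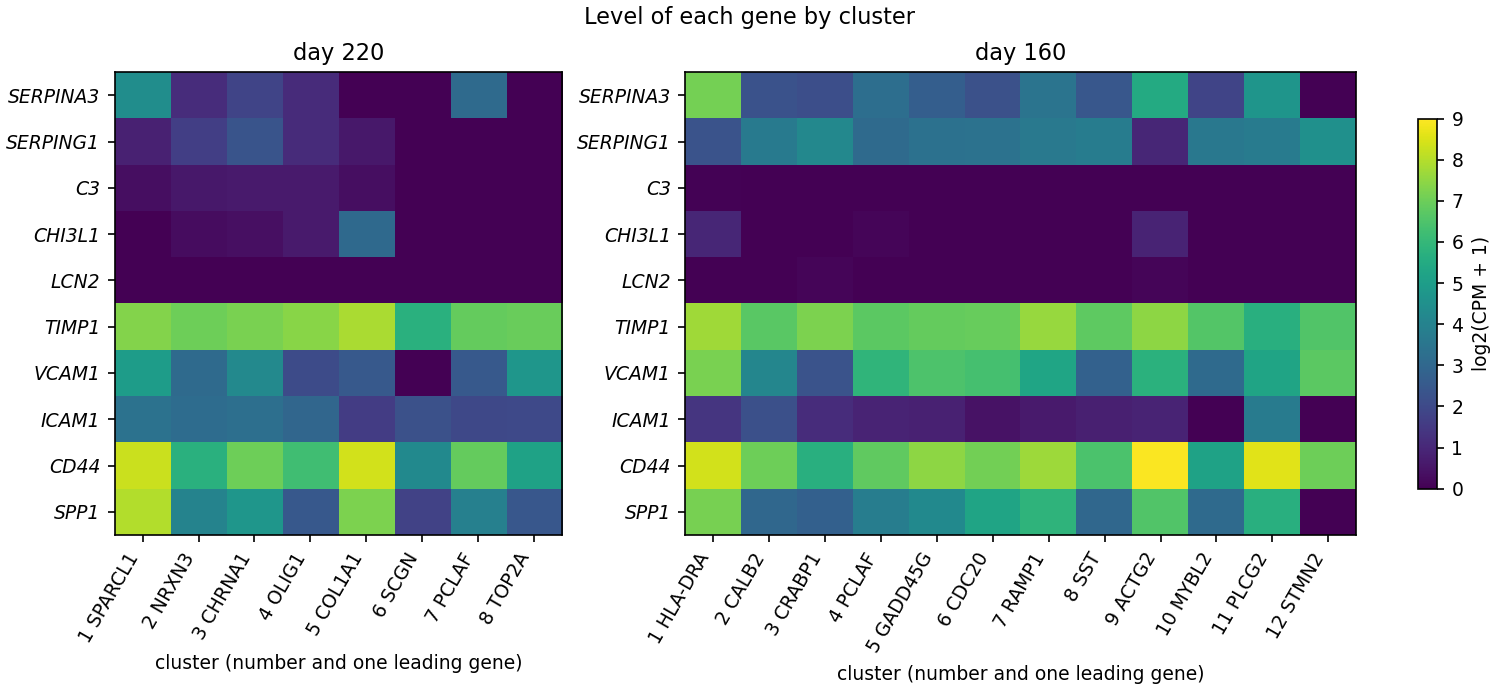
Level of each gene in each cluster as log2 of CPM + 1 (colour), day 220 on the left with 8 clusters and day 160 on the right with 12, clusters ordered by size and named by 1 leading gene. SERPINA3 and SPP1 are brightest in the SPARCL1 cluster at day 220 and in the HLA-DRA cluster at day 160. CD44 is bright in those clusters and in the COL1A1, ACTG2 and PLCG2 clusters, the last resting on 31 UMIs in 27 cells. Among clusters of 50 cells or more, SERPING1 is brightest in the CHRNA1 cluster at day 220 and in the CRABP1 cluster at day 160. TIMP1 is seen in every cluster, at day 220 from 51.5 CPM in the SCGN cluster to 233 CPM in the COL1A1 cluster.

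The counts within classes, like those above, depended on the scaling. They took the 10 genes at any level, whereas the shares of all genes beside them cover only genes at 10 CPM or more in the class. Of the genes called without centring, SERPING1 and ICAM1 were below 10 CPM on both days in astrocyte-like and cycling-like cells. So were CHI3L1 in contractile-like cells and SERPINA3 and ICAM1 in neuronal precursor-like cells. Without centring, in astrocyte-like cells 3 of the 10, SERPINA3, SERPING1 and VCAM1, were at least 2-fold lower at day 220 and 1, ICAM1, was higher, beside 4.88% lower and 23.2% higher of all genes at 10 CPM or more. In contractile-like cells SERPINA3 and VCAM1 were lower and CHI3L1 higher, beside 5.52% and 19.4% of all genes. Neuronal precursor-like cells had SERPINA3 and SERPING1 lower and ICAM1 higher, beside 4.7% and 26.5%. Cycling-like cells had SERPING1, VCAM1 and SPP1 lower and ICAM1 higher, beside 2.84% and 25.1%. SPP1 had 10.4 CPM in cycling-like cells at day 220 and 23.4 CPM at day 160, and the day 220 class held only the 31 cells of the PCLAF and TOP2A clusters. Centring on intron length changed some of these calls. In astrocyte-like cells SPP1 also passed 2-fold, at a log2 ratio of 1.06, and in contractile-like cells CD44 did, at -1.06. In neuronal precursor-like cells SERPINA3 no longer passed, at -0.81, while CD44 at -1.72 and SPP1 at 1.25 did. In cycling-like cells SPP1 no longer passed, at -0.85, while CD44 did, at -1.10.

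To compare shares of cells at equal depth, each cell was thinned to 5000 UMIs, which left out 30 shallower cells at day 220 and 690 at day 160. SERPINA3 then had a UMI in 2.05% of cells at day 220 (0.987 to 3.74) and 10.2% at day 160 (9.61 to 10.9). Without thinning the shares were 8.69% at day 220 and 15.8% at day 160. Among astrocyte-like cells the thinned shares were 5.69% of 123 cells at day 220 and 26.9% of 2740 cells at day 160. Neuronal precursor-like cells, taken as cells low in SERPINA3 and VCAM1, had 0 of 144 at day 220 and 1.90% of 2573 at day 160. These SERPINA3 shares were well under the astrocyte-like ones. At day 160 the precursor-like cells were not lower than astrocyte-like cells in SERPING1 or ICAM1. VCAM1 was found in 5.12% of cells at day 220 (3.34 to 7.47) and 24.4% at day 160 (23.5 to 25.4), with 0% and 4.51% in neuronal precursor-like cells. In astrocyte-like cells VCAM1 was found in 12.2% at day 220 and 49.6% at day 160.

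ICAM1 was detected in 3.89% of thinned cells at day 220 (2.36 to 6.01) and 0.793% at day 160 (0.618 to 1.0). Its share in neuronal precursor-like cells, 2.78% at day 220 and 1.13% at day 160, was of the same order as in all cells. That class included the CALB2 cluster, where ICAM1 was highest at day 160 among clusters of 50 cells or more. The class could therefore not serve as a low reference for ICAM1, and background could not be told apart from low expression. SPP1 was found in 17.2% of cells at day 220 (14 to 20.9) and 14% at day 160 (13.3 to 14.8), the day 160 share lying just inside the day 220 interval. The order turned at 10000 UMIs, with 22.3% of 476 cells at day 220 and 31.6% of 4713 cells at day 160, so no direction is read from these shares. In astrocyte-like cells SPP1 was found in 43.9% at day 220 and 31.6% at day 160. CD44 was found in 36.1% of cells at day 220 (31.8 to 40.5) and 48.4% at day 160 (47.4 to 49.5), and in 65.0% and 71.9% of astrocyte-like cells. TIMP1 was found in 47.1% of cells at day 220 (42.6 to 51.7) and 50.8% at day 160 (49.7 to 51.8), intervals that overlap. At 10000 UMIs TIMP1 was found in 69.1% of cells at day 220 and 78.1% at day 160, and without thinning in 88.8% and 70.5%, so its order depended on depth. SERPING1 was found in 0.615% at day 220 and 4.24% at day 160. CHI3L1 had 2 cells at day 220 and 5 at day 160 after thinning, C3 had 1 cell at day 220 and 0 at day 160, and LCN2 had 0 on both days. At 3 cells of the total, 0 allows up to 0.615% of cells with an LCN2 UMI at day 220 and 0.0345% at day 160, a limit on detection at this depth and not on expression.

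**Figure D4:**
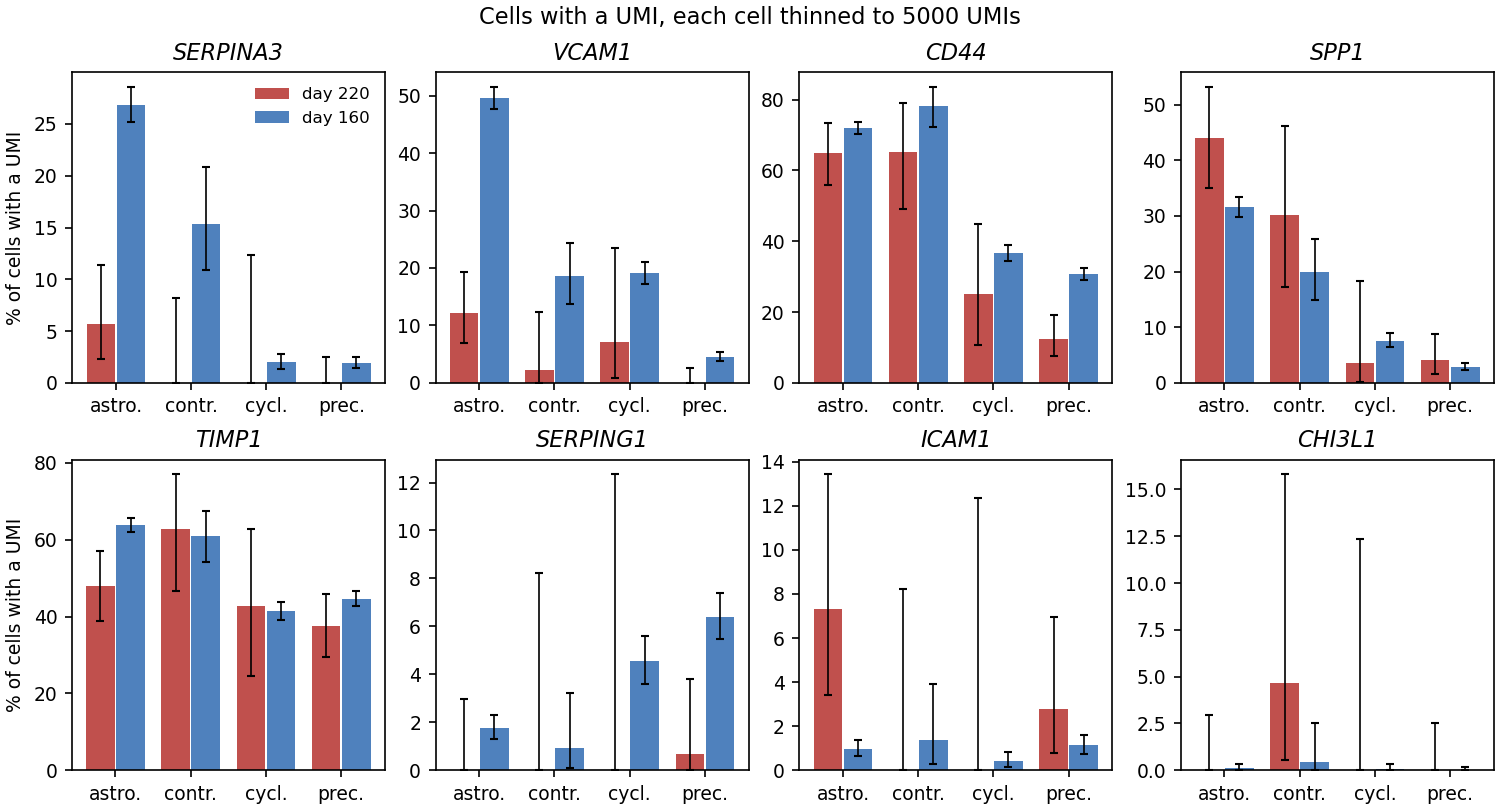
Percent of cells with a UMI of each gene after thinning to 5000 UMIs, in astrocyte-like, contractile-like, cycling-like and neuronal precursor-like cells, day 220 to the left of day 160, with exact Clopper-Pearson 95% intervals for counting error only. The SERPINA3 bars of astrocyte-like cells stand at 5.69% at day 220 and 26.9% at day 160, those of VCAM1 at 12.2% and 49.6%, and those of SPP1 at 43.9% and 31.6%.

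The number of the 10 genes found in each cell was counted in thinned cells, and the thinning limits detection. At 5000 UMIs, 25.2% of astrocyte-like cells had UMIs of 3 or more of the 10 genes at day 220, against 48.1% at day 160. Contractile-like cells had 25.6% at day 220 and 25.3% at day 160, and neuronal precursor-like cells 1.39% and 3.15%. The mean number of the genes per astrocyte-like cell was 1.82 at day 220 and 2.47 at day 160. No thinned cell carried 7 or more.

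**Figure D5:**
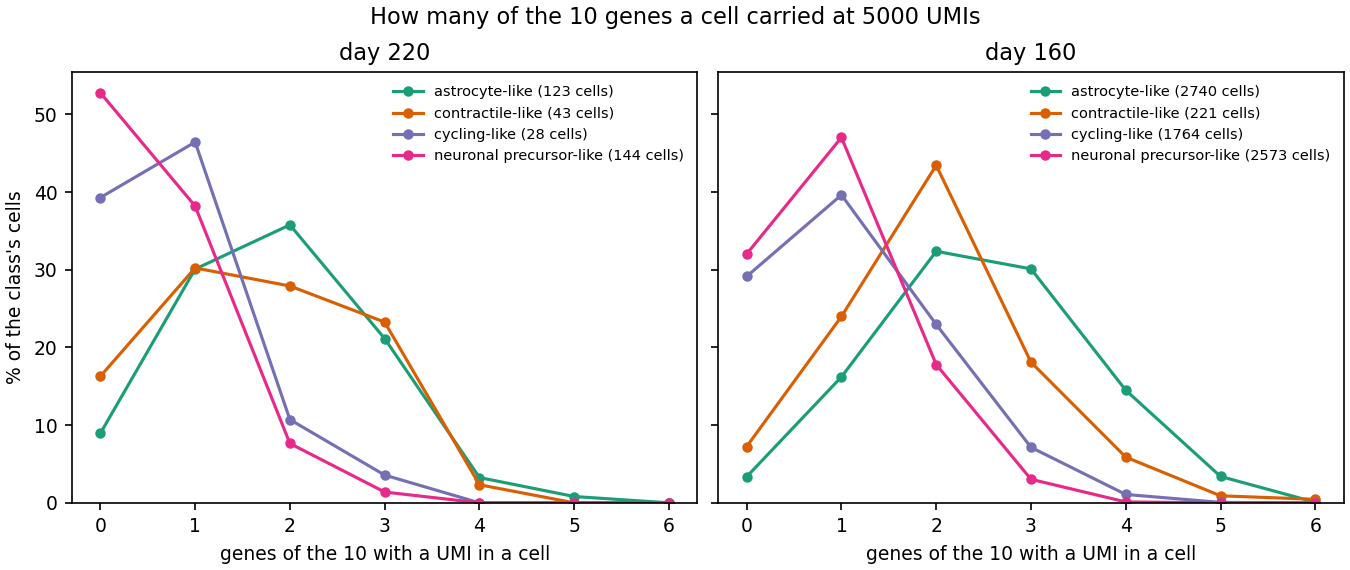
Percent of the cells of each class (vertical axis) by the number of the 10 genes with a UMI after thinning to 5000 UMIs (horizontal axis), day 220 on the left and day 160 on the right. The astrocyte-like line peaks at 2 genes on both days, with 8.94% of cells at 0 genes at day 220 and 3.36% at day 160.

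At day 160 some pairs of the 5 more abundant genes occurred in the same cells more often than the product of their shares. SERPINA3 and SPP1 were found together in 369 of 8699 cells, 2.95 times that product, and 4 of the 10 pairs reached 1.5 times. Within astrocyte-like cells the pair was found together in 341 of 2740 cells, 1.47 times the product, while SERPINA3 and VCAM1 stood at 0.951 times. At day 220 CD44 and SPP1 were together in 55 of 488 cells, 1.82 times the product over all cells and 1.08 times within astrocyte-like cells. These ratios describe detection in 1 library each.

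The genes closest in pattern to each were sought across the 10 day 160 clusters of 50 cells or more, by Pearson r of log2 of CPM + 1. These clusters share 1 library, so r is a description. SERPINA3 was closest to HLA-DMB (0.97), HLA-DQB1 (0.95) and ZDHHC2 (0.94), VCAM1 to BMP7 (0.98), COL4A6 (0.97) and EFCAB14 (0.96), and SPP1 to CIB1, FAM199X and PRNP, each at 0.98. CD44 was closest to EVA1B, ABI1 and BCAM (each 0.97), and TIMP1 to TMEM53 (0.96), ZFYVE21 (0.95) and DTNA (0.94). Among the 5 genes themselves, r was 0.86 for CD44 with SPP1 and 0.40 for TIMP1 with VCAM1.

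Other genes of reactive astrocytes gave a mixed picture. Of 13 genes reported as raised in most reactive astrocytes, a list that includes 4 of the genes above, 7 reached 10 CPM, 2 of these were at least 2-fold lower at day 220, 0 were higher, and the median log2 ratio was -0.29. Beside SERPINA3 the other was GFAP, the intermediate filament gene of astrocytes, with 135 CPM at day 220 and 551 CPM at day 160, 4.07-fold lower (3.93 to 4.21). In a list from mouse neuroinflammatory (A1) astrocytes 4 of 11 genes reached 10 CPM. There HLA-E, a class I antigen-presenting gene, was 2.12-fold lower (1.97 to 2.28), less than 2-fold when centred on intron length, and AMIGO2, an adhesion gene of neurons and glia, was 2.66-fold higher (2.44 to 2.90). In the list from mouse ischaemic (A2) astrocytes 4 of 12 genes reached 10 CPM, and S100A10, a partner of annexin A2, was 2.48-fold lower (2.40 to 2.56) and the only one past 2-fold. Liver acute-phase genes were nearly absent: 1 of 13, A2M, a protease inhibitor that astrocytes also make, reached 10 CPM, with 167 CPM at day 220 and 178 CPM at day 160, and 5 had 0 UMIs in both libraries.

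The other complement genes included C1S, one of the proteases that the product of SERPING1 inhibits, with 16.2 CPM at day 220 and 2.23 CPM at day 160, 7.26-fold higher (6.20 to 8.52). CFI, a protease that inactivates C3b, had 75.4 CPM at day 220 and 163 CPM at day 160, 2.16-fold lower (2.06 to 2.27). These were the only 2 past 2-fold among the 5 of 15 that reached 10 CPM, and C3AR1, the receptor of a C3 fragment, stayed under 1 CPM.

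Of 19 cytokine receptors and signal transducers 15 reached 10 CPM, 1 was at least 2-fold lower and 2 were higher at day 220, with a median of 0.05. JAK2, a kinase of cytokine receptors, had 29.1 CPM at day 220 and 5.71 CPM at day 160, and NFKB1 had 20.2 CPM at day 220 and 7.24 CPM at day 160, or 2.78-fold higher (2.49 to 3.11), which centring on intron length brought to a log2 ratio of 0.52. SOCS3, a target of STAT3 that inhibits its signal, had 28.9 CPM at day 220 and 70.0 CPM at day 160, 2.42-fold lower (2.25 to 2.62), and -0.78 after that centring. STAT3 itself had 157 CPM at day 220 and 151 CPM at day 160. Of 14 NF-kB target genes 3 reached 10 CPM and 0 passed 2-fold in either direction. The chemokine gene CCL2 had 181 CPM at day 220 and 233 CPM at day 160, and CXCL1 and CCL20 had 0 UMIs in both libraries.

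Among 22 genes whose products bind those of the 10 genes, 11 reached 10 CPM, 6 were higher by 2-fold or more at day 220 and 1 was lower, with a median of 1.03. ITGAV, the integrin chain that binds osteopontin, had 149 CPM at day 220 and 38.7 CPM at day 160, 3.85-fold higher (3.68 to 4.02), and its partner ITGB5 was 2.98-fold higher (2.84 to 3.14). ITGA4, a chain of the receptor of VCAM1, was 4.10-fold higher (3.45 to 4.88), at 10.0 CPM against 2.44 CPM. MMP2, a metalloproteinase, was 3.32-fold higher (3.18 to 3.46). ITGB1 and the TIMP1-binding gene CD63 were 2.17-fold and 2.04-fold higher, and EZR, which links CD44 to the cell cortex, was 2.31-fold lower (2.22 to 2.42). Centred on intron length, ITGAV, ITGA4 and CD63 remained at least 2-fold higher, while ITGB1 at 0.38, ITGB5 at 0.46 and MMP2 at 0.70 did not. EZR then stood at -1.57, MSN at -1.25 and RDX at -2.94. MSN and RDX, which like EZR link CD44 to the cortex, passed 2-fold only with this centring. Without it their ratios were 0.910 (0.874 to 0.946) for MSN and 0.741 (0.722 to 0.761) for RDX. The leukocyte chains that bind ICAM1, ITGAL and ITGB2, stayed under 1 CPM in both libraries, and CTSG, the protease that the SERPINA3 product inhibits, had 0 UMIs in both. The lists were chosen with earlier results of these libraries known, and their counts are descriptions beside the shares for all genes given above.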

How the data were processed

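Single-cell RNA of H7-derived astrocyte progenitors was measured in 1 library per day, prepared with a 10x Genomics 3′ kit per the labels. The deposited values are raw UMI counts per gene and barcode, and the file headers name Cell Ranger 7.0.1 as the program that wrote them. The submitters' processing notes list Seurat 4 and the hg38 build besides. For intron counting, strand, annotation release and barcode filters, nothing is given in the sources used here. Barcodes with 1000 or more genes and up to 15% mitochondrial UMIs were kept, less doublets marked by Scrublet (scanpy 1.11.5, expected rate 0.06). Counts were summed per library or class and scaled to CPM, with a pseudocount of 1 CPM for log2 ratios; a limit for 0 UMIs is 3 counts. Intervals are exact at 95% (Poisson for CPM, conditional binomial for ratios without a pseudocount, Clopper-Pearson for shares) and cover counting error only; cells were not treated as replicates. Libraries were clustered alone (2000 variable genes, 30 components, 15 neighbours, Leiden resolution 0.5), and a class was named from fixed markers after the clusters were seen. Class names may differ from those of the study. Coordinates, overlapping genes and intron lengths (centring in bins of 200 genes) are from GENCODE 29 on GRCh38 and promoters from RefSeq on GRCh38.p14. The ratio code was tested on simulated data. The 10 genes and the lists were chosen with earlier results of these data known. Beyond the 10 genes, the text names list genes past 2-fold at 10 CPM or more, up to 4 a list, and for each of the 10 genes at 10 CPM the 3 genes most alike in pattern; of binding partners any gene may be named. List genes named below 2-fold or 10 CPM, such as A2M, STAT3, CCL2, CXCL1, CCL20 and C3AR1, were chosen after their values were seen.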

Additional observations from a re-analysis of the deposited data

Results flagged for a closer look

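In 3 genes the difference between day 220 and day 160 ran in opposite directions in different classes of cells. These differences between classes were not tested, since each day had 1 library. CHI3L1 had a log2 ratio of 2.19 in contractile-like cells and -0.97 in astrocyte-like cells, and the value for astrocyte-like cells rests on 0 UMIs at day 220 and 41 UMIs at day 160, 31 of them in 1 cell. TIMP1 had a log2 ratio of 0.40 in contractile-like cells and -0.36 in astrocyte-like cells, both under 2-fold, and centred on intron length the contractile-like value was 0.64 and the astrocyte-like one 0.06, so the signs were then no longer opposite. SPP1 had log2 ratios of 0.83 in astrocyte-like cells, 0.65 in contractile-like cells and 0.93 in neuronal precursor-like cells, against -1.10 in cycling-like cells, of which day 220 held 31.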

How the results depend on the processing

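No paired analysis was possible because each day had 1 library. Across 14 settings, which did not include cycling-like cells alone, SERPINA3 was lower at day 220 in all, with log2 ratios between -5.50 and -1.21, VCAM1 between -3.22 and -0.65 (13 of 14 past 2-fold), SERPING1 between -2.45 and -0.39 (12 of 14) and ICAM1 between 0.68 and 2.27 (12 of 14). VCAM1 missed 2-fold in neuronal precursor-like cells, and SERPING1 and ICAM1 in contractile-like cells and with a pseudocount of 5 CPM. The number at least 2-fold lower, 3 as reported, was 2 or 3 in every setting. The number at least 2-fold higher, 1 as reported, was 2 with centring on intron length, 2 with a mitochondrial limit of 10%, 2 with cells thinned to 5000 UMIs, 3 with a pseudocount of 0.1 CPM, 0 with a pseudocount of 5 CPM and 0 among genes at 10 CPM or more. The median, -0.01 as reported, was -0.29 among genes at 10 CPM or more and -0.24 in astrocyte-like cells, and 0.31 with centring on intron length, where the median of all genes was 0. Shares of cells also depended on depth: at 10000 UMIs, with 476 cells at day 220 and 4713 at day 160, SPP1 was found in 22.3% of cells at day 220 and 31.6% at day 160, and TIMP1 in 69.1% and 78.1%. Without thinning TIMP1 was found in 88.8% at day 220 and 70.5% at day 160, and CD44 in 68.3% and 62.6%. The 4 pairs detected together at 1.5 times the product of their shares became 1 at 10000 UMIs. Of all genes, 28.0% were past 2-fold in either direction, against 16.9% with no minimum level and 30.2% with a minimum of 50 CPM. The cause of these shifts was not tested. The settings of contractile-like and neuronal precursor-like cells alone, and the other depths for pairs, were added after seeing the data. Depth limits C3, LCN2 and CHI3L1, which had at most 34 UMIs at day 220 and 51 UMIs at day 160.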
